A study of Homo sapiens with 4 samples.

Results

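The genes described here encode nuclear lamina proteins (*LMNA*, *LMNB1*, *LMNB2* and *LBR*), high mobility group (HMG) proteins (*HMGB1*, *HMGB2*, *HMGA1* and *HMGA2*) and the lysosomal β-galactosidase *GLB1*, which are commonly read as markers of senescence. They were taken by name from the deposited count table, and 9 of 9 were found among its 18449 gene symbols. The libraries came from BT-16 and CHLA-266, established cell lines of atypical teratoid/rhabdoid tumor (AT/RT), a childhood brain tumor that typically has lost SMARCB1, and both lines belong to the subgroup AT/RT-MYC. Untreated cells were compared with cells that had received 1 µM doxorubicin, 5 µM etoposide and 1 µM vincristine on consecutive days (the label writes the last unit as µm), of which most died and the survivors grew again weeks later. Treated libraries therefore hold the survivors of 1 culture, and no library with drug solvent alone was used here. Since 1 library was made per line and condition, the lines were the replicates (n = 2 libraries per condition), and p values measure only the spread between these libraries. Doxorubicin and etoposide act on topoisomerase II, whereas vincristine acts on microtubules.

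The nuclear lamina is a mesh of A-type lamins (from *LMNA*) and B-type lamins (from *LMNB1* and *LMNB2*) under the inner nuclear membrane, and the lamin B receptor LBR ties heterochromatin to it. HMGB proteins bend DNA and loosen chromatin, HMGA proteins bind the minor groove of AT-rich DNA, and both classes are abundant in dividing cells. In senescence, a lasting exit from the cell cycle that DNA-damaging drugs can cause, loss of lamin B1, LBR and HMGB2, release of HMGB1 from the nucleus, HMGA proteins in heterochromatin foci and raised lysosomal β-galactosidase activity have been described. Loss of LMNB1 and HMGB2 transcripts also occurs in cells that rest or divide slowly, since both genes are transcribed with the cell cycle.

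The total count was between 49849257 and 75087193 per library, and the treated library was the smaller one in both cell lines. Counts were set in relation to the library size by the trimmed mean of M values (TMM) and are given as CPM, that is, counts scaled to a common library size. The median log2 fold change of all 18066 genes tested was 0.24 (treated over untreated). It was 0.005 in a fit of the 12620 genes that had 10 counts or more in each library, to which all 9 members belong. *SMARCB1*, the gene lost in most AT/RT, had 1394 and 1313 counts in the untreated and 981 and 827 in the treated libraries of BT-16 and CHLA-266. *MYC* had 14275 and 11515 counts untreated and 6804 and 7505 treated. After scaling, the log2 fold change was -0.34 for *SMARCB1* (adjusted p = 0.226, edgeR) and -0.59 for *MYC* (adjusted p = 0.0289, edgeR). Only *MYC* passed the threshold given below, and it did not pass under upper-quartile normalization. Counts of *SMARCB1* are no test of the loss of SMARCB1 protein. In a count of RNA from bulk cells, fewer cells that express a gene and less RNA of it per cell cannot be told apart.

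Sequences upstream of the start site are shown for *LMNB1*, the member with the greatest decrease after treatment, and for *LMNA*, which did not pass the threshold. They are also shown for *HMGB1*, which has 3 matches to CCAAT in the bases shown. They were taken from RefSeq (GRCh38.p14) and cover the 150 bases before the start, 5′ to 3′ on the strand of the gene. Capitals mark matches to the motifs searched. The regions are chr5:126776473-126776622 (plus strand) for *LMNB1*, chr13:30465937-30466086 (minus strand) for *HMGB1* and chr1:156082423-156082572 (plus strand) for *LMNA*.
LMNB1: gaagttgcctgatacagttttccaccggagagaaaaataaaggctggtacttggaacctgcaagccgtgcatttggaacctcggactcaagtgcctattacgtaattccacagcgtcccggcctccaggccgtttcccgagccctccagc
HMGB1: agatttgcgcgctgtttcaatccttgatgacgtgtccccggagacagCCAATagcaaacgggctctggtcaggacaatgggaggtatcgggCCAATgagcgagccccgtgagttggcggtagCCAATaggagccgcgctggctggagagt
LMNA: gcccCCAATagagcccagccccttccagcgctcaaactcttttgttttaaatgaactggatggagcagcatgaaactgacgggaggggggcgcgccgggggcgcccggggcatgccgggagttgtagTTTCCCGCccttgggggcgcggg

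The search covered both strands of 250 bases before to 50 bases after the start, and 7 of the 9 genes had an entry (*HMGB2* and *HMGA2* had no entry). The letters were CCAAT (the box of the factor NF-Y), TTTGAA (the core of the cell cycle homology region) and TTTGGCGC, TTTCCCGC, TTTGCCGC or TTTCGCGC (E2F), and none of these motifs overlaps another in the matches listed here. CCAAT was present in 36.2% of 14383 promoters of tested genes and in 3 of the 7, at -103, -59 and -28 in *HMGB1*, at -146 in *LMNA* and on the opposite strand at 39 bases after the start in *HMGA1*. An E2F motif was present in 4.57% of promoters and, of the 7, in *LMNA* at -23. TTTGAA was present in 11.9% of promoters and, of the 7, in *LMNB2* at -246. For comparison, 17, 9 and 8 of 22 proliferation genes with an entry held CCAAT, an E2F motif and TTTGAA. Thus *LMNB1*, *LBR* and *GLB1* held none of these letters in this window, which describes the window and says nothing of the factors. The start used was that of RefSeq. For *GLB1* (bases before it at chr3:33096823-33097072) and *HMGB1* these bases lie within the gene spans given below, and for *LBR* they overlap its span. For these genes, the bases before the outermost annotated start were thus not, or not fully, searched.

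After treatment, 5 of the 9 genes fell (*LMNB1*, *HMGB2*, *LBR*, *HMGB1* and *LMNB2*) and 2 rose (*GLB1* and *HMGA1*), while *LMNA* and *HMGA2* did not pass the threshold. The test was the quasi-likelihood test of edgeR with Benjamini-Hochberg adjustment over 18066 genes and an adjusted p value under 0.05. Of all genes tested, 35.2% passed it, 19.1% lower and 16.1% higher. Thus 5 of 9 genes (lower) stood beside 19.1% of all genes, and 2 of 9 (higher) beside 16.1%. All 5 genes that fell did so by a log2 fold change of -1 or less, which 9.53% of all genes did. The libraries of the 2 conditions did not overlap in any of the 9 genes, but this was true for 72.6% of all genes (40.2% above and 32.3% below the untreated libraries), so that the absence of overlap sets these genes little apart. All 9 had at least 428 counts in every library and passed each filter on low counts.

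**Figure D1:**
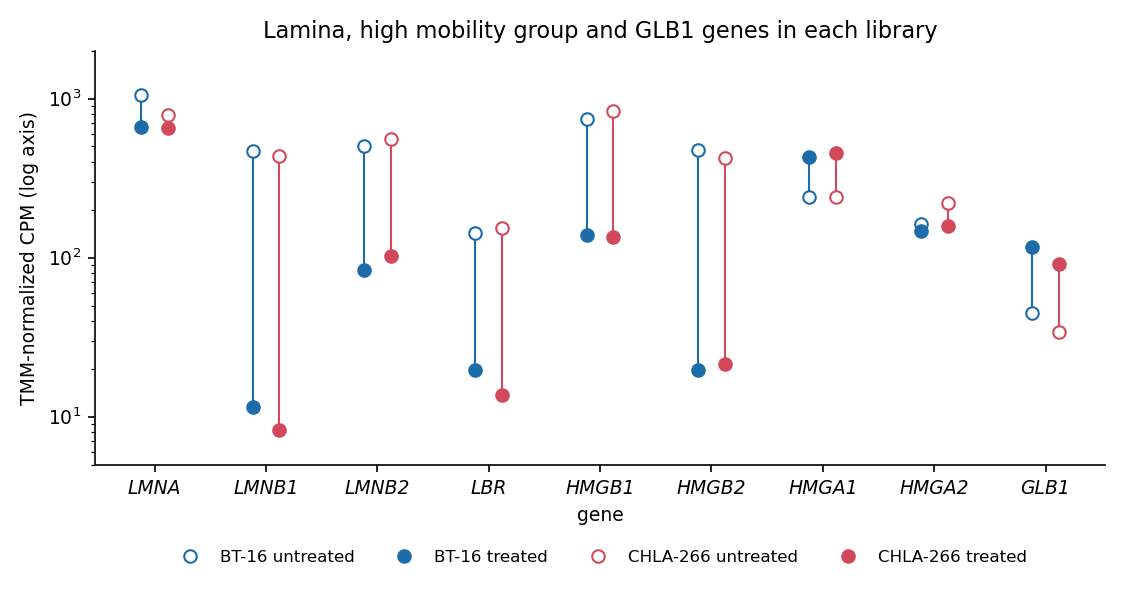
Normalized expression (TMM-normalized CPM, log axis) of the 9 genes in each library, with open circles for untreated and filled circles for treated cells of BT-16 and CHLA-266, joined within a cell line. *LMNB1* went from 469 and 438 CPM to 11.5 and 8.24 CPM, whereas *LMNA* stayed between 657 and 1060 CPM in all 4 libraries.

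Among the lamins, *LMNB1* (ENSG00000113368, chromosome 5, 126776623 to 126837020, plus strand, GRCh38), which encodes lamin B1, had 469 CPM (32343 counts) in untreated and 11.5 CPM (664 counts) in treated BT-16 cells. In CHLA-266 it had 438 CPM (26942 counts) and 8.24 CPM (428 counts). Both treated libraries lay far below both untreated libraries. The decrease was 45.9-fold (log2 fold change -5.52, SE 0.23, adjusted p = 1.92e-06, edgeR), and *LMNB1* had rank 33 of 18066 genes by p value. Within the cell lines, the log2 ratio was -5.35 in BT-16 (95% interval -5.46 to -5.24) and -5.73 in CHLA-266 (-5.87 to -5.59). Intervals within a cell line are exact Clopper-Pearson intervals that cover counting error only. *LMNB1* moved from the percentile 98.1 to 54.6 of all genes by CPM (without regard to length) in BT-16 and from 97.9 to 51.3 in CHLA-266.

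*LMNB2* (ENSG00000176619, chromosome 19, 2427638 to 2456959, minus strand), which encodes lamin B2, had 503 and 553 CPM in untreated BT-16 and CHLA-266 cells and 83.8 and 102 CPM in treated cells. The treated libraries were lower in both lines, but less so than those of *LMNB1*. The decrease was 5.69-fold (log2 fold change -2.51, SE 0.18, adjusted p = 3.00e-05, edgeR), with log2 ratios of -2.59 within BT-16 (-2.63 to -2.54) and -2.44 within CHLA-266 (-2.49 to -2.40). *LBR* (ENSG00000143815, chromosome 1, 225401502 to 225428925, minus strand), which encodes a receptor for B-type lamins that is also a sterol reductase, had 143 and 154 CPM untreated and 19.6 and 13.6 CPM treated. It fell 8.93-fold (log2 fold change -3.16, SE 0.21, adjusted p = 1.98e-05, edgeR). The log2 ratio of *LBR* was -2.86 within BT-16 (-2.95 to -2.77) and -3.50 within CHLA-266 (-3.62 to -3.39). The decrease in CHLA-266 was greater by more than counting error, but a difference between cell lines in the effect of treatment could not be tested with 1 library per line and condition.

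*LMNA* (ENSG00000160789, chromosome 1, 156082573 to 156140081, plus strand), which encodes lamins A and C, had 1060 CPM in untreated BT-16 and 794 CPM in untreated CHLA-266 cells. It had 661 and 657 CPM in the treated libraries. The treated libraries were lower in both lines and close to each other. The log2 fold change was -0.49 (SE 0.19) and did not pass the threshold (adjusted p = 0.0724, edgeR). With a block for the cell line, which pairs its libraries, it was -0.48 (SE 0.15) and passed (adjusted p = 0.0121, edgeR), and 2 of 9 alternatives passed (adjusted p between 0.0121 and 0.541). The log2 ratio was -0.68 within BT-16 (-0.70 to -0.66) and -0.27 within CHLA-266 (-0.29 to -0.25). Without the untreated BT-16 library the log2 fold change was -0.27, and without the untreated CHLA-266 library it was -0.69. In the block fit, 6 of the 9 genes were lower and 2 higher, beside 23.7% and 17.9% of all genes (41.6% in either direction).

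**Figure D2:**
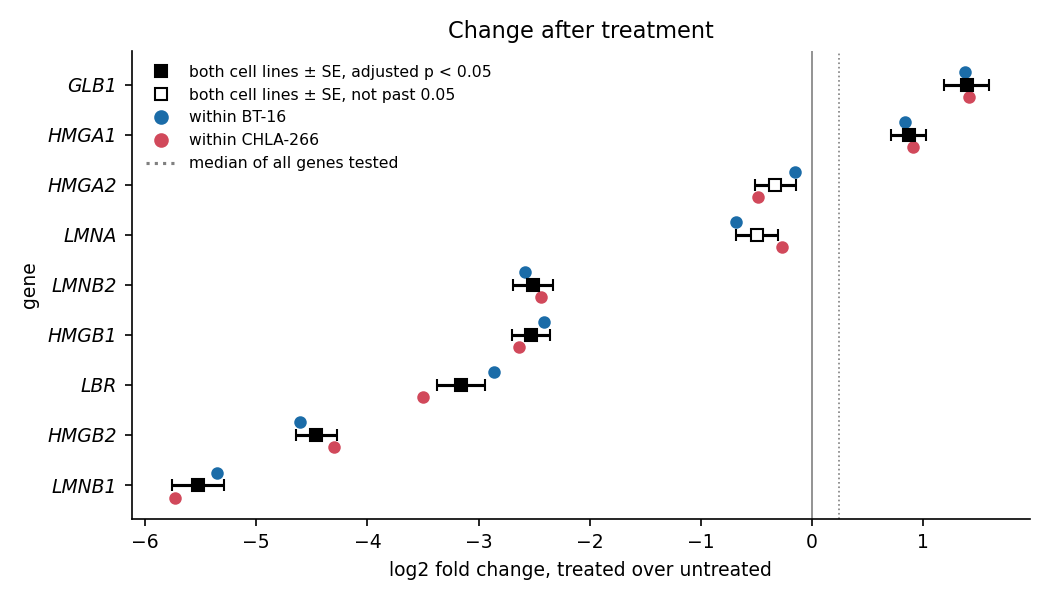
Log2 fold change (treated over untreated) of each gene, with squares for the estimate over both cell lines ± SE (filled where the adjusted p value of edgeR was under 0.05), circles for the log2 ratio within BT-16 and CHLA-266, and a dotted line for the median of all genes (0.24). Estimates ran from -5.52 in *LMNB1* to 1.39 in *GLB1*, and *LMNA* (-0.49) and *HMGA2* (-0.33) did not pass the threshold.

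Since the lamins were measured within the same library, their ratio does not depend on the scaling between libraries. Per kilobase of exon (union of all exons), *LMNA* and *LMNB1* had similar levels in untreated cells, with a ratio of 1.01 in BT-16 and 0.810 in CHLA-266. In treated cells the ratio was 25.7 and 35.5. Thus A-type lamin transcripts outnumbered *LMNB1* transcripts by far in both treated libraries. The log2 ratio was -0.15 ± 0.22 (SD, n = 2) untreated and 4.92 ± 0.33 (SD, n = 2) treated, a difference of 5.06 (33.4-fold), which ranged from 4.83 to 5.30 when 1 library was left out. The ratio of *LMNA* to *LMNB2* was 1.40 and 0.951 in untreated and 5.23 and 4.28 in treated BT-16 and CHLA-266 cells, which is a difference of 2.04 on the log2 scale. The ratio of *LMNB2* to *LMNB1* was 0.723 and 0.851 untreated and 4.91 and 8.31 treated, a difference of 3.03 on the log2 scale. The treated libraries were above the untreated ones in these 3 ratios, but with 2 against 2 libraries the exact permutation test (two-sided) cannot give a p value below 0.33, which it gave for each. With the longest coding transcript as the length, the levels of the ratios changed (*LMNA* to *LMNB1* 2.06 and 1.65 untreated, 52.3 and 72.4 treated), whereas their differences did not.

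**Figure D3:**
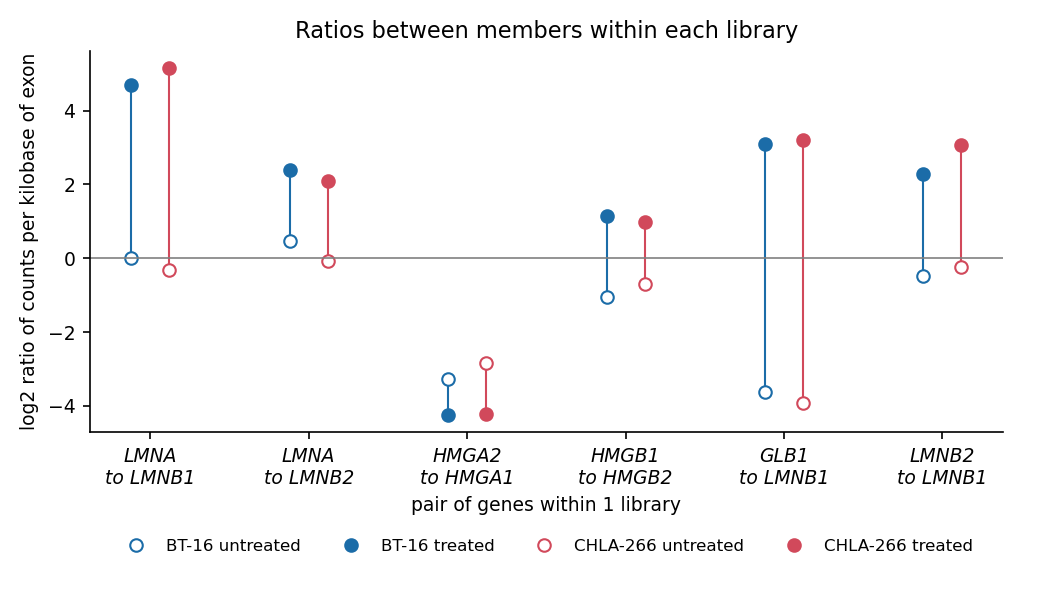
Log2 ratio of counts per kilobase of exon between pairs of the genes within each library, with open circles for untreated and filled circles for treated cells. *LMNA* to *LMNB1* went from 0.01 and -0.30 to 4.68 and 5.15 in BT-16 and CHLA-266, and *HMGA2* to *HMGA1* was the ratio that was lower in the treated libraries.

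Among the HMGB genes, *HMGB2* (ENSG00000164104, chromosome 4, 173331376 to 173334432, minus strand), a DNA-bending protein abundant in cycling cells, had 478 and 421 CPM in untreated and 19.6 and 21.3 CPM in treated BT-16 and CHLA-266 cells. The treated libraries were lower in both lines and close to each other. The decrease was 22.0-fold (log2 fold change -4.46, SE 0.19, adjusted p = 1.92e-06, edgeR), with rank 32 by p value. Within the lines, the log2 ratio was -4.61 in BT-16 (-4.70 to -4.52) and -4.30 in CHLA-266 (-4.39 to -4.22). *HMGB1* (ENSG00000189403, chromosome 13, 30456704 to 30617597, minus strand), a chromatin protein that acts as an alarm signal once outside the cell, had 744 and 835 CPM untreated and 140 and 134 CPM treated. These are transcript levels, so that release of the protein was not measured. *HMGB1* fell 5.76-fold (log2 fold change -2.53, SE 0.17, adjusted p = 2.01e-05, edgeR), with log2 ratios of -2.41 (-2.45 to -2.38) and -2.64 (-2.67 to -2.60) within the lines. The annotation lists 48 pseudogenes named after *HMGB1* and 1 named after *HMGB2*, and reads shared with them could be counted either way. Per kilobase, *HMGB1* was below *HMGB2* in untreated cells (ratio 0.485 and 0.619) and above it in treated cells (2.23 and 1.97), a difference of 1.93 on the log2 scale (3.82-fold) with an exact permutation p of 0.33.

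Among the HMGA genes, *HMGA1* (ENSG00000137309, chromosome 6, 34236873 to 34246231, plus strand), an architectural chromatin protein, had 242 and 241 CPM in untreated and 431 and 453 CPM in treated BT-16 and CHLA-266 cells. The treated libraries were higher in both lines, and the lines were close to each other in either condition. The increase was 1.83-fold (log2 fold change 0.87, SE 0.16, adjusted p = 0.00406, edgeR), with log2 ratios of 0.83 (0.80 to 0.86) and 0.91 (0.88 to 0.94) within the lines. It did not reach a log2 fold change of 1, and 8 pseudogenes are named after it. *HMGA2* (ENSG00000149948, chromosome 12, 65824460 to 65966291, plus strand), its paralog with high expression in embryonic and stem-like cells, had 164 and 220 CPM untreated and 148 and 157 CPM treated. The treated libraries were below both untreated ones, by little in BT-16. The log2 fold change was -0.33 (SE 0.18) and did not pass the threshold (adjusted p = 0.186, edgeR), also with the block (adjusted p = 0.0856). Under upper-quartile normalization the sign of *HMGA2* turned (log2 fold change 0.01, adjusted p = 0.964, edgeR). *RPSAP52* and *HMGA2-AS1* overlap *HMGA2* on the opposite strand, and the strand setting of the counting is not given in the sources used here. The log2 ratio of *HMGA2* to *HMGA1* per kilobase was -3.26 and -2.83 untreated and -4.24 and -4.22 treated, a difference of -1.19 (exact permutation p of 0.33).

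*GLB1* (ENSG00000170266, chromosome 3, 32996609 to 33097202, minus strand), whose product cleaves terminal galactose in the lysosome and is stained as senescence-associated β-galactosidase, had 45.0 and 34.2 CPM in untreated and 117 and 91.1 CPM in treated BT-16 and CHLA-266 cells. Both treated libraries were above both untreated ones. The increase was 2.62-fold (log2 fold change 1.39, SE 0.20, adjusted p = 0.00137, edgeR), with log2 ratios of 1.37 (1.31 to 1.44) and 1.41 (1.34 to 1.49) within the lines. *GLB1* moved from the percentile 71.7 to 91.1 of all genes in BT-16 and from 67.6 to 87.1 in CHLA-266. *TMPPE* lies within *GLB1* on the same strand and had 440 and 346 counts untreated and 639 and 474 counts treated, against 3105 and 2108 and 6741 and 4736 counts of *GLB1*. Per kilobase, *GLB1* was at 0.0805 and 0.0656 times the level of *LMNB1* in untreated and at 8.50 and 9.26 times in treated cells, a difference of 6.93 on the log2 scale (exact permutation p of 0.33). Thus the order of these 2 genes was inverted in both lines.

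Per kilobase of exon, the order of levels in untreated cells was led by *HMGB2* (199 and 175 CPM per kilobase in BT-16 and CHLA-266). *LMNA* (130 and 97.6), *LMNB1* (129 and 121), *HMGA1* (104 and 104), *HMGB1* (96.7 and 109) and *LMNB2* (93.3 and 103) followed. Their ranges over the lines overlapped, except that *LMNB1* was above *HMGA1*, *HMGB1* and *LMNB2*, and *HMGA1* was above *LMNB2*. Within each line, *HMGB1* was also above *LMNB2*. *LBR* (24.96 and 27.0) was next, and *HMGA2* (10.9 and 14.6) and *GLB1* (10.4 and 7.90) were the lowest. In treated cells, *HMGA1* (185 and 195) and *LMNA* (81.2 and 80.7) were the highest. *GLB1* (26.9 and 21.0) was then above *HMGB1* (18.2 and 17.5) and *LMNB2* (15.5 and 18.9), which overlapped. *HMGA2* (9.79 and 10.4) and *HMGB2* (8.16 and 8.87) were below these. The lowest were *LBR* (3.44 and 2.38) and *LMNB1* (3.16 and 2.27), whose ranges overlapped, with *LBR* above *LMNB1* within each line. The order depended on the length used, and with the longest coding transcript *LMNA* (333 and 249.9 CPM per kilobase untreated, 208 and 207 treated) overlapped *HMGB2* (332 and 292) in untreated and *HMGA1* (199.5 and 209.6) in treated cells. The 9 genes together held 0.354% and 0.343% of all counts in untreated and 0.183% and 0.171% in treated BT-16 and CHLA-266 cells.

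No difference between the cell lines passed the threshold in these genes. In a model with treatment and cell line as terms, 0 of the 9 genes passed (edgeR) between CHLA-266 and BT-16, beside 2.3% of all genes (0.836% higher and 1.46% lower in CHLA-266). The count was also 0 in DESeq2 with the same terms. At an unadjusted p value under 0.05, it was 1 of 9 (and 1809 of all genes). *GLB1* had the greatest difference, with a log2 value of -0.38 (CHLA-266 minus BT-16, SE 0.15, adjusted p = 0.306, edgeR), and *HMGA2* had 0.26 (SE 0.15, adjusted p = 0.631). *HMGA1*, *HMGB1* and *HMGB2* differed between the lines by 0.03, 0.06 and -0.04 on the log2 scale.

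Among 29 other genes of the lamina and nuclear envelope, 18 passed, each of them lower, beside 19.1% of all genes. The median log2 fold change was -0.86 beside 0.24 for all genes (with the block, 18 were lower and 1 higher). *TMPO*, which encodes the lamina-associated LAP2 proteins, had 24754 and 28139 counts untreated and 3011 and 4487 treated (log2 fold change -2.56, SE 0.26, adjusted p = 0.000233, edgeR). *CBX5*, the heterochromatin protein HP1α that binds LBR, fell by 1.60 on the log2 scale, and *BANF1*, which bridges DNA and the envelope, fell by 1.53. *SUN1* and *SUN2*, which link the lamina with the cytoskeleton, fell by 0.86 and 0.89, and *ZMPSTE24*, the protease that matures prelamin A, fell by 0.63. *EMD* (emerin) was not among the genes tested, nor were *ATRX*, *TREX1*, *TIMP1* and *TFE3* of the other lists. Absence of a gene does not show that it was not expressed, since the study removed repetitively counted genes and genes of the sex chromosomes.

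Of 18 other HMG genes, 8 passed, each of them lower, beside 19.1% of all genes. Their median log2 fold change was -0.31 (with the block, 8 were lower and 2 higher). *HMGN2*, which binds nucleosomes, had 44504 and 39394 counts untreated and 5330 and 4744 treated (log2 fold change -2.81, SE 0.17, adjusted p = 8.88e-06, edgeR). *HMGN1* fell by 1.39 and *SSRP1*, the HMG-box subunit of the histone chaperone FACT, by 1.75. Of 8 regulators of *HMGA2* or RNA-binding proteins tied to it, 1 was higher and 2 were lower, beside 16.1% and 19.1% of all genes (3 and 2 with the block). The median log2 fold change was 1.27. It includes genes with few untreated counts that did not pass, such as *LIN28A* (18 and 12) and *IGF2BP1* (11 and 13), and does not show that the list rose. The lower count was 0 without the untreated CHLA-266 library, 1 without the untreated BT-16 or the treated CHLA-266 library and 0 under upper-quartile normalization. The higher count was 2 without any 1 library other than the untreated CHLA-266 library. *TRIM71* had a log2 fold change of 2.42 (adjusted p = 0.0115), *DICER1* one of -0.75 (adjusted p = 0.00891) and *DIS3L2* one of -0.54 (adjusted p = 0.0439, edgeR for all). *LIN28B*, which blocks the let-7 microRNAs that repress *HMGA2*, had 4 and 28 counts untreated and 4 and 56 treated and did not pass (adjusted p = 0.551, edgeR). *IGF2BP2*, a target of HMGA2, had a log2 fold change of 0.63 (adjusted p = 0.0508, and 0.00275 with the block, edgeR).

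Of 30 lysosomal glycosidases and partners of *GLB1*, 15 were higher and 5 lower, beside 16.1% and 19.1% of all genes, with a median log2 fold change of 0.71. The lower count was 2 without the untreated BT-16 library and 3 under upper-quartile normalization or library totals. *CTSA*, the protective protein that shields β-galactosidase in a complex with the sialidase NEU1, had 5459 and 5484 counts untreated and 18203 and 15349 treated (log2 fold change 1.86, SE 0.17, adjusted p = 0.000105, edgeR). *NEU1* rose by 1.19 on the log2 scale, so that the 3 parts of the complex (*GLB1*, *CTSA* and *NEU1*) were each higher. *GUSB*, the β-glucuronidase, fell by 1.32. Of the relatives of *GLB1*, *GLB1L* had a log2 fold change of 0.25 (adjusted p = 0.633), *GLB1L2* fell by 1.64 (adjusted p = 0.0151) and *GLB1L3* had 2.79 (adjusted p = 0.0572, edgeR for all), the last pair being named after their values were seen.

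**Figure D4:**
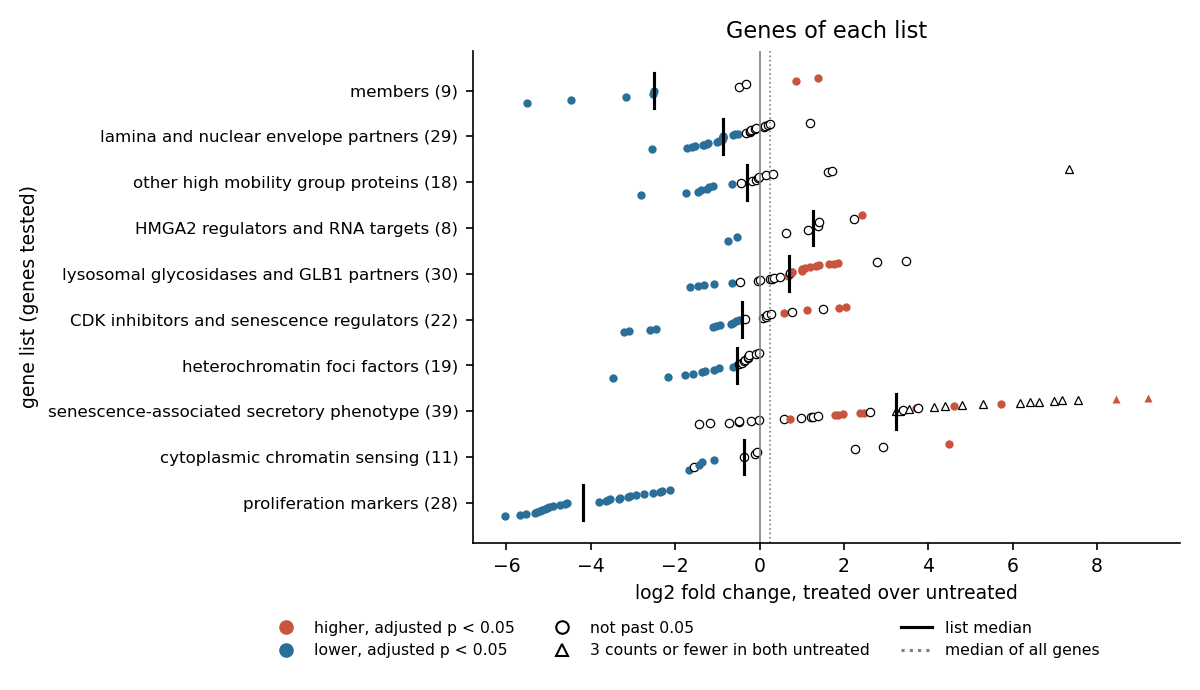
Log2 fold change (treated over untreated) of each gene in the lists, with red and blue points for genes higher and lower at an adjusted p value under 0.05 (edgeR), open points for genes that did not pass, triangles for genes with 3 counts or fewer in both untreated libraries, a bar for the list median and a dotted line for the median of all genes. All 28 proliferation genes were lower (median -4.18), whereas 15 of 30 lysosomal genes were higher and 5 lower (median 0.71).

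Among CDK inhibitors and senescence regulators, 4 of 22 were higher and 11 lower, beside 16.1% and 19.1% of all genes, with a median log2 fold change of -0.42. The lower count was 7 without the untreated BT-16 library, under upper-quartile normalization, with library totals or among genes that had 10 counts or more in each library, and 6 at an absolute log2 fold change of at least 1. *CDKN1A*, which encodes the inhibitor p21, had 8181 and 6485 counts untreated and 25541 and 19760 treated (log2 fold change 1.88, SE 0.17, adjusted p = 0.000136, edgeR). *CDKN2B* (p15) had 594 and 651 counts untreated and 1810 and 2502 treated and rose by 2.05. In contrast, *CDKN2A*, the locus of p16 and p14ARF, had 3293 and 2275 counts untreated and 1194 and 960 treated and fell by 1.11 (adjusted p = 0.0041, edgeR). *RB1* fell by 0.49, *RBL1* (p107) fell by 2.46 and *EZH2*, the H3K27 methyltransferase, fell by 2.60. Of 28 proliferation genes, 28 fell, with a median of -4.18, and the proliferation antigen *MKI67* fell by 6.03 and the ribonucleotide reductase subunit *RRM2* fell by 5.54. *LMNB1* and *HMGB2* thus had decreases between that median and the value of *MKI67*, while *LMNB2*, *LBR* and *HMGB1* had decreases smaller than their median.

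Of 19 genes for heterochromatin foci, 10 passed, each of them lower, beside 19.1% of all genes, with a median log2 fold change of -0.54. *ASF1B* fell by 3.48, the H3K9 methyltransferase *SUV39H2* by 2.16 and the variant histone *MACROH2A1* by 1.29. Of 11 genes tested for the sensing of chromatin in the cytoplasm, 1 was higher (2 without the untreated CHLA-266 library) and 4 lower, with a median of -0.36. For all genes, the shares were 16.1% higher and 19.1% lower. *CGAS*, the DNA sensor, had 2043 and 2529 counts untreated and 758 and 741 treated and fell by 1.37. *STING1*, its adaptor, had 3 and 32 counts untreated and 86 and 64 treated (adjusted p = 0.13, edgeR), *RNASEH2C* fell by 1.67, and *ZBP1* (9 and 0 counts untreated, 73 and 95 treated) rose (adjusted p = 0.026, edgeR).

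Of 39 genes tested of the senescence-associated secretory phenotype (SASP), 11 passed, each of them higher (with the block, 10 were higher and 2 lower, and without the untreated CHLA-266 library 7 were higher and 1 lower). In the fit of genes that had 10 counts or more in each library, 6 SASP genes were higher and 0 lower. Of all genes, 16.1% were higher and 35.2% passed in either direction. The median log2 fold change of the 39 SASP genes was 3.23. There were 15 genes with 3 counts or fewer in both untreated libraries. With these set to the bound that 3 counts give, the median was 2.03 over 38 genes. *CCL20*, with at most 2 counts in any library, was left out of it. Some genes that passed had few untreated counts, such as *HGF* (0 and 0 untreated, 42 and 38 treated). Over 335 olfactory receptor genes, of sensory neurons of the nose, the median was 0 counts per kilobase in both untreated libraries. It was 4.61 and 2.13 in treated BT-16 and CHLA-266 cells. The part of such a rise of low signals in the SASP genes was not tested. The core cytokines were hardly detected, with 2, 18, 0 and 0 counts of *IL6* and 0, 34, 0 and 0 counts of *CXCL8* in untreated and treated BT-16 and untreated and treated CHLA-266 cells. Neither passed the threshold (adjusted p = 0.378 and 0.124, edgeR). Abundant genes that rose were *IGFBP3* (1839 and 1046 counts untreated, 6125 and 6263 treated, log2 fold change 2.38), *GDF15* (2521 and 1618 untreated, 6926 and 5688 treated, 1.87) and *ANGPTL4* (log2 fold change 1.78).

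Markers of other cells were low but also moved with treatment. Their counts stand beside 16.1% of all genes higher and 19.1% lower. Of 14 macrophage markers, 4 were higher, or 2 without either CHLA-266 library (median log2 fold change 3.43, or 2.95 with genes of 3 counts or fewer at their bound), with a summed level of 4.55 to 7.21 CPM in untreated and 11.5 to 13.6 CPM in treated libraries, and *CD68* was at 0 in both treated libraries. *CD68* was left out of the median with bounds. *ITGAM* (CD11b) had 4 and 4 counts untreated and 111 and 196 treated, and *AIF1* had 0 untreated and 27 and 55 treated. For *AIF1* this is at least 10.7-fold and 21.7-fold higher against a floor of 3 counts per library. In contrast, *CD74* had 36 and 49 counts untreated and 6 and 6 treated and did not pass (adjusted p = 0.113, edgeR). The log2 ratio within BT-16 and CHLA-266 was 1.042 and -0.513 for *CSF1R* and -0.525 and 1.325 for *PTPRC*, which did not pass either. The macrophage markers thus did not move together. Of 14 fibroblast and endothelial markers, 5 were higher and 1 lower (median 2.26), with a summed level of 12.2 to 16.8 CPM untreated and 21.5 to 35.3 CPM treated. *VWF* had 45 and 40 counts untreated and 405 and 216 treated, *PDGFRA* 11 and 15 against 128 and 206, and *COL1A2* 408 and 412 against 103 and 49. Of 335 olfactory receptor genes, which belong to sensory neurons of the nose, 121 and 90 were detected in untreated and 293 and 209 in treated BT-16 and CHLA-266 cells. Their 95th percentile was 31.3 and 23.6 counts per kilobase in the treated libraries, below *LMNB1* (183 and 118) and *LBR* (199 and 124), the lowest of the 9 genes there. The part of these low signals in the changes described here was not tested.

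By likeness over the 4 libraries (Euclidean distance of centered log2 CPM among 12620 genes that had 10 counts or more in each library), *LMNB1* was nearest to *KIF20A* (0.049), *H4C2* (0.112) and *PTTG1* (0.151). *HMGB2* was nearest to *CCNB2* (0.102), *SPAG5* (0.142) and *DEPDC1B* (0.168). *KIF20A*, *PTTG1*, *CCNB2* and *SPAG5* act in mitosis, and *H4C2* encodes a histone H4. *GLB1* was nearest to *HOXB3* (0.068), *SYT5* (0.079) and *HEBP1* (0.086), and *HMGA2* to *PALS1* (0.015), *USP24* (0.047) and *EPC2* (0.058). With 4 libraries, small distances describe similar change on this scale only. A constant was added to CPM before the logarithm, which shrinks the change of genes with few counts. *HOXB3* had 25 and 10 counts untreated and 98 and 69 treated, so that its fold change was greater than that of *GLB1* despite the small distance.

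The 7 genes that passed the threshold did so in each of the 9 alternatives of model, tool, normalization and filter and with each library left out in turn. In these, the log2 fold change was between -5.78 and -4.98 for *LMNB1*, -4.55 and -4.11 for *HMGB2*, -3.45 and -2.81 for *LBR*, -2.64 and -2.17 for *LMNB2*, and -2.61 and -2.18 for *HMGB1*. It was between 0.85 and 1.22 for *HMGA1* and between 1.20 and 1.74 for *GLB1*.

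**Figure D5:**
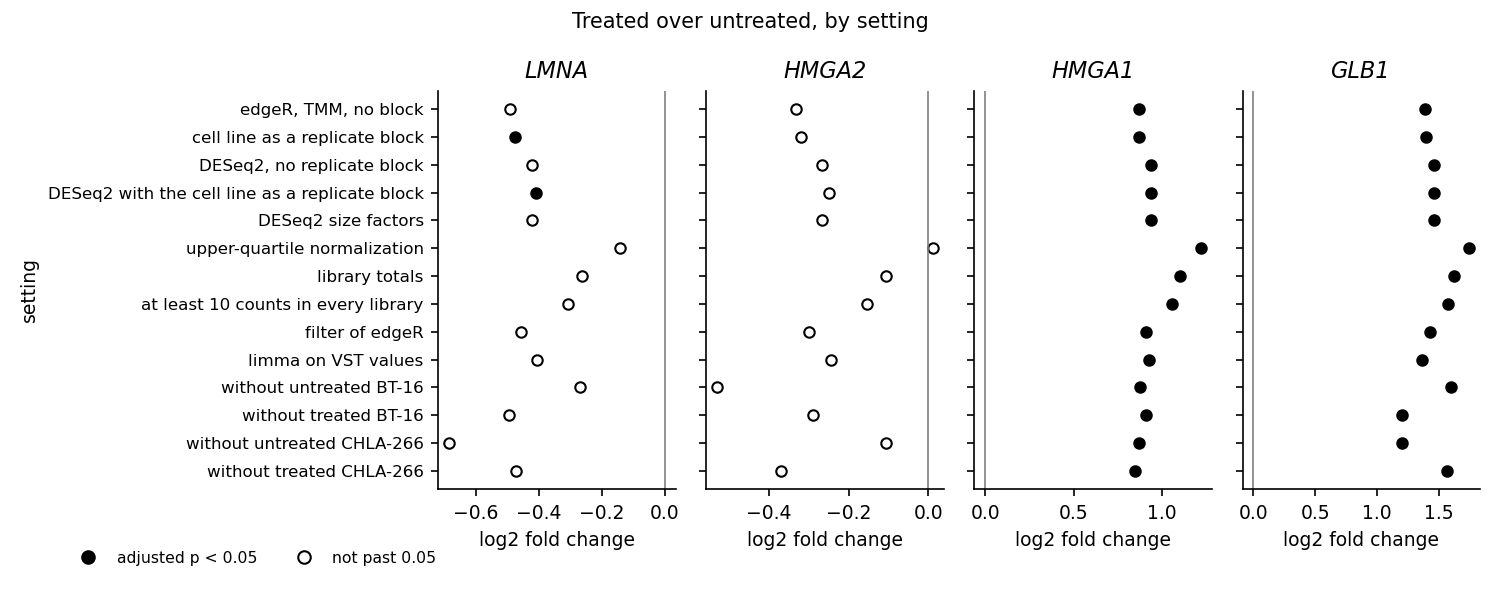
Log2 fold change (treated over untreated) of *LMNA*, *HMGA2*, *HMGA1* and *GLB1* under each setting of model, tool, normalization, filter and left-out library, filled where the adjusted p value was under 0.05. *LMNA* passed with a block for the cell line (-0.48), *HMGA2* was at 0.01 under upper-quartile normalization, and *HMGA1* (0.85 to 1.22) and *GLB1* (1.20 to 1.74) passed throughout.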

How the data were processed

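RNA of 4 libraries (BT-16 and CHLA-266, untreated and treated) was sequenced with paired ends. Per the labels and methods, the authors demultiplexed reads with bcl2fastq 2.20, removed adapters, mapped reads with STAR to hg38 and summed them by gene. The deposited estimated counts are raw counts for 18449 symbols, and 5 fractional values (in 2 genes) were rounded here. The deposited log2 values are variance-stabilized (VST) by DESeq2 and were used as an alternative only. All columns of samples were used. Whether each read of a pair was counted is not given in the sources used here. Among counts from 1 to 20, only 20.5% to 34.2% were odd, so that Clopper-Pearson 95% intervals, which cover counting error, may be too narrow (halved counts gave -5.51 to -5.19 for *LMNB1* in BT-16).

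The 383 symbols with a total of 0 were left out. Per the methods of the study, genes of the sex chromosomes were removed, so that shares of all genes do not cover them. Treated and untreated libraries were compared across 18066 genes with the quasi-likelihood test of edgeR 4.0.16 (R 4.3.3, TMM, Benjamini-Hochberg, adjusted p value under 0.05) without a covariate, as the study states none. TMM factors were 0.919 to 1.12. The libraries are paired by cell line, and as a check their deviations from the mean of each condition correlated with r = 0.321 across 12620 genes (genes are not independent replicates). A block for the line lowered the common dispersion from 0.14 to 0.0712. The members and lists were chosen with earlier results of these data known. Named were all 9 members, fixed genes of interest, and the 2 called genes of smallest adjusted p per list and direction, except items that are not reported here. Within-line ratios used a pseudocount of 0.5 counts, and lengths and coordinates came from GENCODE 44 (GRCh38). Levels at 0 were bounded by 3 counts per library.

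Alternatives were the block, DESeq2 1.42.0 with and without it, DESeq2 size factors, upper-quartile normalization, library totals, 2 filters on low counts (10 counts in every library, and that of edgeR), limma 3.58.1 on VST values, an absolute log2 fold change of at least 1, and each library left out. Halved counts and the overlap of conditions were added after seeing the data. Tested on simulated data with 200 genes changed by a log2 value of 2 (treated against untreated, 18041 genes tested), edgeR recovered 170 with 5 false calls. With means that differ by line (18037 genes tested) it recovered 0 without and 175 with the block. The simulation used 1 dispersion for all genes. In the data themselves, the fit without the block called 6364 of 18066 genes, so that the simulation does not give its power here. Genes short of the threshold are not shown to be unchanged.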

Additional observations from a re-analysis of the deposited data

How the results depend on the processing

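The counts of members called (5 lower, 2 higher) were kept in the alternatives of tool, normalization and filter, and with each library left out, with 2 exceptions. With an absolute log2 fold change of at least 1, the higher members numbered 1, as *HMGA1* no longer counted. With the cell line as a block, which pairs the libraries, 6 were lower because *LMNA* passed (log2 fold change -0.48, adjusted p = 0.0121, edgeR), as it also did in DESeq2 with the block (adjusted p = 0.016), and the block changed no other call among the members. *HMGA2* reversed under upper-quartile normalization (0.011). Of all genes, 3454 were lower and 2910 higher, against 1895 and 4361 under upper-quartile normalization and 2353 and 3678 with library totals, and 1721 were lower at an absolute log2 fold change of at least 1. The median log2 fold change of all genes was 0.59 under upper-quartile normalization, 0.47 with library totals and 0.005 among genes that had 10 counts or more in each library. SASP genes that rose numbered 6 to 14 over the alternatives and 7 without the untreated CHLA-266 library, macrophage markers that rose 0 to 6 and 2 without either CHLA-266 library, lysosomal genes that rose 10 to 20 and that fell 3 to 6, senescence regulators that fell 6 to 12, *HMGA2* regulators that rose 1 to 3 and that fell 0 to 2, and envelope genes that fell 9 to 18, while the 28 proliferation genes were lower in each alternative. Leaving out a library from the model with cell line and treatment as terms could not be fitted, since no residual degrees of freedom remained. *IL6* and *CXCL8* were at 0 counts in both CHLA-266 libraries and were not detectable there at this depth, and with 2 libraries per condition no permutation test of a ratio could pass.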
